A study of Mus musculus with 6 samples.

Results

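LINE element reads were followed by subfamily in messenger RNA libraries of CD24- and CD24+ Mvt1 cells. The members are every annotation name of the class LINE that the deposited tables give to a mapped read. The reads of each name were summed per library and scaled to counts per 1000000 mapped reads (CPM). There were 121 LINE names among 16023 annotation names, and they held 908859 of 98367174 mapped reads. Of these, 6 names begin with L1Md and 115 are other LINE names. The other names were grouped by their spelling into 28 rodent L1 names (Lx, L1_Mus, L1_Mur, L1_Mm, L1_Rod and L1VL), 76 mammal-wide L1 names (L1M, L1P and HAL1) and 11 remaining names of the L2, CR1 and RTE families with MusHAL1.

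Mvt1 is a mammary carcinoma line of FVB/N mice, raised from a tumour driven by Myc and Vegf transgenes. By flow sorting on CD24, a glycoprotein that a lipid anchor holds on the outside of the cell membrane, the line was split into a CD24- and a CD24+ group. Both groups were then grown as adherent cells in the same medium with serum, without a further treatment, and RNA came from 3 plates of each group. All 6 libraries therefore stem from 1 line and 1 sort is described, so that a difference tied to CD24 cannot be told apart from any other that arose between the sorted groups. Cd24a itself was measured at 8.97, 8.51 and 5.13 CPM in the CD24- libraries and at 51.5, 61.8 and 53.9 CPM in the CD24+ libraries (log2 fold change 2.88 ± 0.17 SE, adjusted p = 6.65e-07).

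Mapped reads per library ranged from 9046025 to 25692147, and LINE reads made up 0.837% to 0.994% of them. The cells are labelled mammary epithelial. Of the epithelial markers, Krt8, Krt18 and Krt19 were read in every library, while Cdh1, Epcam, Krt5 and Krt14 had at most 6 reads each over all libraries. Summed over 7 epithelial markers, the level was 1357 to 1515 CPM in CD24- and 548 to 634 CPM in CD24+ libraries, and Krt8, Krt18 and Krt19 fell by 1.08, 1.82 and 1.98 on the log2 scale. The 4 mesenchymal markers summed to 2916 to 3491 and 3897 to 4988 CPM, with Fn1 and Pdgfrb higher in CD24+ cells (log2 fold changes 2.98 and 3.76), Zeb1 lower (-0.39) and Vim not called. The part of these marker changes in the LINE results was not tested. Summed over 7 leukocyte markers, the level was 31.9 to 56.5 CPM in CD24- and 5.18 to 6.63 CPM in CD24+ libraries. Nearly all of those reads were of Cd68, a lysosomal protein, while Ptprc had 2 reads and Cd3e did not occur as a name in any library. The 3 endothelial markers summed to 1.24 to 1.9 CPM in CD24- and 0.117 to 0.553 CPM in CD24+ libraries, and of them Cdh5 was called lower (log2 fold change -3.26, adjusted p = 0.000258).

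LINEs are retrotransposons without long terminal repeats. A full-length L1 carries an internal promoter and encodes an RNA-binding protein and a protein with endonuclease and reverse transcriptase activity, with which it copies its own RNA back into the genome. The L1Md subfamilies are the younger ones of the mouse, and A, T and Gf include copies that can still move, whereas the Lx, L1M, L2 and CR1 elements are old and broken. Most copies are cut short and many lie within or beside genes, so a read inside a LINE can stem from a transcript of another promoter. The L1 enzymes also copy cellular messenger RNAs, and such intronless retrocopies can lie in or next to LINE sequence.

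Each read of 47 bases had been mapped by exact match and given 1 place and 1 name. The first set comes from LINE names whose most-read window of 10 kb matched cellular messenger RNAs, and holds the most-read sequence of that window. All 47 bases of each, as printed or as the reverse complement, were found in a GENCODE transcript of the gene given in brackets. The Lx5, L1_Mus2 and L1Md_A reads also occurred in transcripts of further genes, for L1Md_A among them Rpl7a-ps5 and Rpl7a-ps11. Where a window matched several genes about equally often, the gene named for it passes over predicted genes and pseudogenes. In build mm9, with the coordinates as deposited, the L1_Mur1 read lies at chrX:76440781-76440827 on the minus strand, the Lx5 read at chr3:119412497-119412543 on the minus strand, the L1_Mus2 read at chr3:5750987-5751033 on the plus strand and the L1Md_A read at chr3:33521204-33521250 on the minus strand.
L1_Mur1 (Rps24): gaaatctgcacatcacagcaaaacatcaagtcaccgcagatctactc
Lx5 (Rps20): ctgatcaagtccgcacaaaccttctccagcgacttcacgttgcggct
L1_Mus2 (Ubb): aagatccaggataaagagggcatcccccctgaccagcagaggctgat
L1Md_A (Rpl7a): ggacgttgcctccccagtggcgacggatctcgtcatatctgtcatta

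The second set holds the most-read sequence in the most-read window of L1Md_F3 and of L1Md_T. These reads share sequence with reads that the authors annotated as ribosomal RNA (rRNA), and capitals mark the bases that lie in a shared stretch of at least 24 bases, here all 47. The L1Md_F3 read lies at chr1:115800802-115800848 on the minus strand and the L1Md_T read at chr13:9833572-9833618 on the plus strand.
L1Md_F3 (rRNA): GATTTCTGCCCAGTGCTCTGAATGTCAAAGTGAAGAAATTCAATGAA
L1Md_T (rRNA): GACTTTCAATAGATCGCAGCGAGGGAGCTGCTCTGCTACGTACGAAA

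The third set comes from 4 of the LINE loci that differed between the groups, chosen after their values were seen for their reads and the size of the change. These reads match neither a GENCODE transcript nor an rRNA read. They lie at chr1:7032107-7032153 (minus strand), chr1:7046659-7046705 (plus strand), chr6:128972158-128972204 (minus strand) and chr17:27038979-27039025 (plus strand), in that order.
L1_Mus2 (chromosome 1): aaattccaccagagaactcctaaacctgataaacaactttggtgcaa
L1Md_F2 (chromosome 1): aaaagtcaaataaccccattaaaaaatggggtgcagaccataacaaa
L1Md_F3 (chromosome 6): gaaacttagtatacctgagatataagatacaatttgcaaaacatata
Lx3C (chromosome 17): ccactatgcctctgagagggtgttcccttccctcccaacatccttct

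Sorted in this way, 57.4% of the LINE reads occurred in a transcript of a protein-coding gene, 6.21% in another transcript only, 4.12% shared a stretch with rRNA reads and 32.2% matched neither. The last kind is called unmatched. A read that shared a stretch with rRNA reads was counted as such even where it also occurred in a transcript. A match shows that the letters occur in that transcript and not that the read was made from it, since a transcript can itself contain a LINE. Nor does the lack of a match show a transcript of the LINE itself. The search covered transcripts and not introns, so a LINE read from an intron of a gene can be unmatched. By distinct sequence the order was different, with 66% of the 396021 sequences unmatched and 25% in a coding transcript. The reads in coding transcripts were thus fewer sequences read many times.

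**Figure D1:**
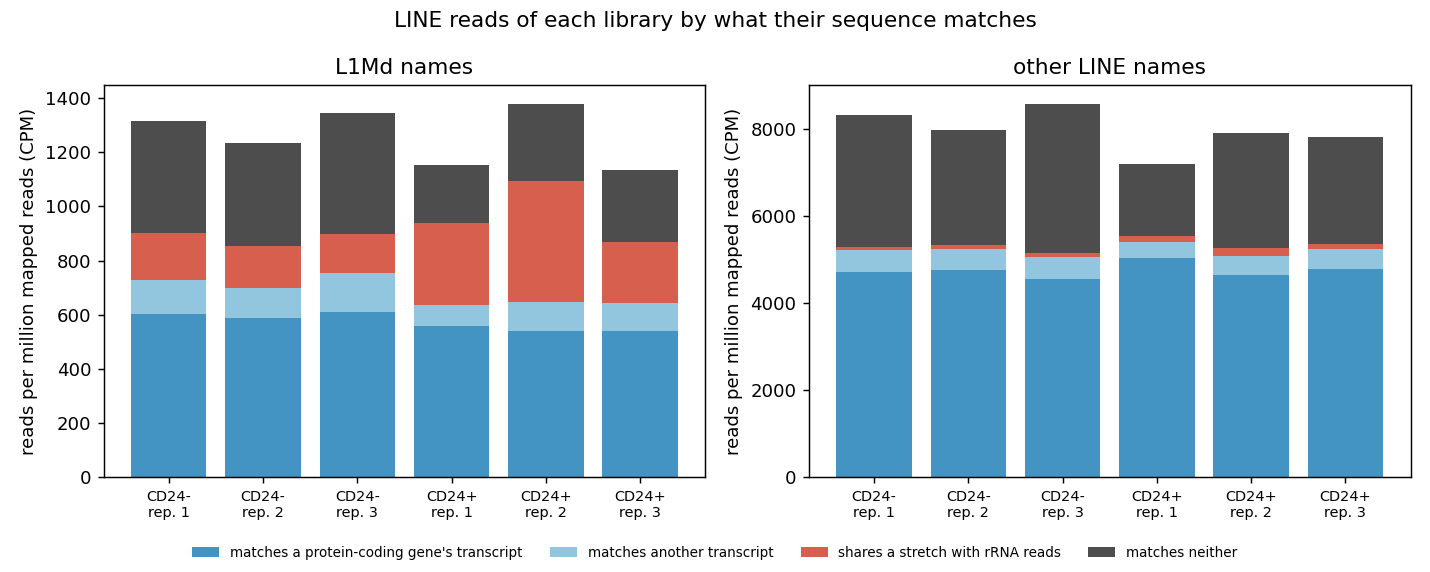
LINE reads of each library in CPM, for the 6 L1Md names (left) and the 115 other LINE names (right), stacked by what the read sequence matches. The rRNA-sharing part of L1Md is taller in the 3 CD24+ libraries (224 to 446 CPM) than in the 3 CD24- libraries (143 to 172 CPM), while the unmatched part is shorter (214 to 285 against 380 to 447 CPM).

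Summed over all names, LINE reads hardly separated the groups. They stood at 9656, 9224 and 9937 CPM in the CD24- libraries and at 8369, 9296 and 8965 CPM in the CD24+ libraries. The groups overlapped. In such bulk libraries a smaller number of cells that make a transcript cannot be told apart from less of it per cell. L1Md reads stood at 1315, 1233 and 1345 CPM in CD24- and at 1153, 1379 and 1136 CPM in CD24+ libraries and overlapped as well. The other LINE names summed to 8341, 7990 and 8592 CPM against 7216, 7917 and 7829 CPM, a ratio of the means of 0.921, without overlap but by a margin smaller than the SD of either group (302 and 382 CPM, n = 3).

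These totals hid parts that moved in opposite directions. L1Md reads sharing a stretch with rRNA reads were at 172, 153 and 143 CPM in CD24- and at 302, 446 and 224 CPM in CD24+ libraries. Reads annotated as rRNA were at 8190 to 9087 CPM in CD24- and at 15841, 35118 and 11990 CPM in CD24+ libraries, so that the 3 CD24+ libraries stood in the same order in both. Whether rRNA left in the libraries makes up this part of L1Md was not tested. Unmatched L1Md reads went the other way, with 414, 380 and 447 CPM in CD24- and 214, 285 and 268 CPM in CD24+ libraries. The groups did not overlap and the ratio of the means was 0.619. L1Md reads that matched transcripts were lower as well, also without overlap. Those in another transcript only were at 126, 110 and 144 against 78.3, 106 and 103 CPM (ratio 0.756). Those in coding transcripts were at 603, 590 and 610 against 558, 542 and 541 CPM (ratio 0.91).

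Unmatched reads of the other LINE names were at 3033, 2657 and 3431 CPM in CD24- and at 1671, 2634 and 2460 CPM in CD24+ libraries, a ratio of 0.742. CD24+ replicate 1 was the lowest in this class for the rodent L1, the mammal-wide L1 and the remaining names alike. L1Md made up 12%, 12.5% and 11.5% of the unmatched LINE reads in CD24- and 11.4%, 9.77% and 9.84% in CD24+ libraries. Those shares just failed to overlap, and without the most-read 10-kb window of each name they were 11.5% to 12.4% and 10.3% to 12.2% and overlapped. Other repeat classes were summed over all their reads, matched or not, and so are not on the same footing as unmatched LINE reads. Reads annotated as SINE were at 20934 to 23635 CPM in CD24- and 16263 to 20104 CPM in CD24+ libraries, and reads of LTR repeats at 40152 to 41625 and 31538 to 35147 CPM, both without overlap. Reads of DNA repeats, at 1678 to 1800 and 1423 to 1703 CPM, overlapped.

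Each name was then compared between the groups in a fit over all annotation names. Of 11868 names tested, 20.8% passed an adjusted p of 0.05 as higher in CD24+ cells and 23.6% as lower, and the median log2 fold change was -0.03. Of the 121 LINE names, 107 had enough reads to be tested, and 4 were called higher and 12 lower. LINE names were therefore called at a share of 15%, below the 44.3% of all names. Their median log2 fold change was -0.20, and 80 of the 107 were fitted below 0.

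Among the 6 L1Md names, 3 were called lower, none higher, and the median was -0.22. L1Md_F2, the name with the most L1Md reads (53982), was at 611, 586 and 626 CPM in CD24- and at 494, 541 and 487 CPM in CD24+ libraries, with a log2 fold change of -0.26 ± 0.08 (SE, adjusted p = 0.0244). L1Md_F was at 44.8, 38.2 and 48.3 against 26.8, 36.6 and 31.6 CPM (-0.45 ± 0.13, adjusted p = 0.0165). L1Md_Gf, with 420 reads in all, was at 5.54, 3.87 and 6.87 against 3.1, 3.71 and 3.58 CPM (-0.62 ± 0.23, adjusted p = 0.0472). In each of these the CD24+ libraries lay below the CD24- libraries without overlap, though for L1Md_Gf and L1Md_F the nearest libraries differed by less than the SD of the CD24- group.

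L1Md_A was at 219, 219 and 220 against 198, 193 and 191 CPM and did not pass (-0.18 ± 0.07, adjusted p = 0.0692). L1Md_T overlapped, with 244, 223 and 256 against 227, 306 and 230 CPM (0.08 ± 0.12, adjusted p = 0.623). L1Md_F3 was at 190, 163 and 187 against 204, 298 and 192 CPM (0.36 ± 0.15, adjusted p = 0.0764). In the last pair the highest library was CD24+ replicate 2, which also had the most rRNA reads. Without that library L1Md_F3 was at 0.14 (adjusted p = 0.278) and L1Md_T at -0.08 (adjusted p = 0.51). With DESeq2, which scaled the libraries by its own factors, L1Md_F3 was called higher (0.39, adjusted p = 0.0255).

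The count of 3 rested on the scaling and on single libraries. With TMM scaling, which moved the median of all names to 0.01, only L1Md_F was called, and with each distinct sequence counted once no L1Md name was. Distinct sequences were scaled to their own number in each library and not to its mapped reads. The part of that scaling in the lost calls was not tested. Without CD24- replicate 1 no L1Md name was called, and without CD24- replicate 3 only L1Md_F was. Without CD24+ replicate 3 none was called lower, and L1Md_F3 was called higher (0.48, adjusted p = 0.0377). The call of L1Md_F2 was also lost without CD24- replicate 2 (adjusted p = 0.056). That of L1Md_Gf was lost with DESeq2 (adjusted p = 0.0678) and without any one of 5 libraries, CD24- replicate 2 being the exception, and its value was -0.41 without CD24- replicate 3. L1Md_A was called lower without CD24+ replicate 1 (-0.19, adjusted p = 0.0481).

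Most of the L1Md reads sat in few places or matched other transcripts. For L1Md_A, 49% of 20025 reads fell into 1 window of 10 kb on chromosome 3 (33520000 to 33529999), and 99.1% of these occurred in transcripts of Rpl7a, a ribosomal protein. For L1Md_F3, 35.1% fell into 1 window on chromosome 1, all of them sharing a stretch with rRNA reads, and for L1Md_T 29.4% fell into 1 window on chromosome 13, 99.9% of them rRNA-sharing. L1Md_F2 had reads in 9888 windows and 12.2% of them in the largest, which matched Atp5l, a subunit of ATP synthase. The largest window of L1Md_Gf held 3.1% of its reads.

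Limited to unmatched reads, all 6 L1Md names were lower in every CD24+ library than in any CD24- library, as were 30.5% of all names tested. In a fit in which each LINE name kept only its unmatched reads, 20.7% of 11865 names were called higher and 23.5% lower, and 5 of the 6 L1Md names were called lower, with a median of -0.68. The choice of these reads was made after the values over all reads were seen.

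L1Md_F2 was at 247, 233 and 258 CPM in CD24- and at 121, 161 and 149 CPM in CD24+ libraries in this class (-0.77 ± 0.11, adjusted p = 0.000231). L1Md_F3, whose sum over all reads had been higher in CD24+ cells, was at 56.8, 49.5 and 62.4 against 29.1, 38.1 and 36.4 CPM (-0.69 ± 0.12, adjusted p = 0.00118). L1Md_A was at 30.8, 27.8 and 35.4 against 15.4, 22.5 and 20.4 CPM (-0.66 ± 0.14, adjusted p = 0.00408). For these names every CD24- library stood above every CD24+ library by more than the SD of either group.

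L1Md_T moved least, from 56.1, 52.4 and 63.6 to 39.4, 47.6 and 46.9 CPM (-0.35 ± 0.11, adjusted p = 0.0211). L1Md_F was at 21.7, 15.8 and 24.8 against 7.74, 15.4 and 14.4 CPM (-0.67 ± 0.23, adjusted p = 0.0366), with the second CD24- and second CD24+ libraries nearly level. L1Md_Gf had only 118 unmatched reads, at 1.56, 1.2 and 2.07 against 1.11, 0.897 and 0.934 CPM, and was not called (-0.74 ± 0.29, adjusted p = 0.0643).

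The calls of L1Md_A, L1Md_F2 and L1Md_F3 were kept with each library left out in turn. Those of L1Md_F and L1Md_T were lost without CD24- replicate 1, CD24- replicate 3 or CD24+ replicate 1, which left 3 calls each time, and that of L1Md_F also without CD24+ replicate 3. Without the most-read window of each name the same 5 names were called, with L1Md_F2 at -0.61 and L1Md_F3 at -0.43.

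**Figure D2:**
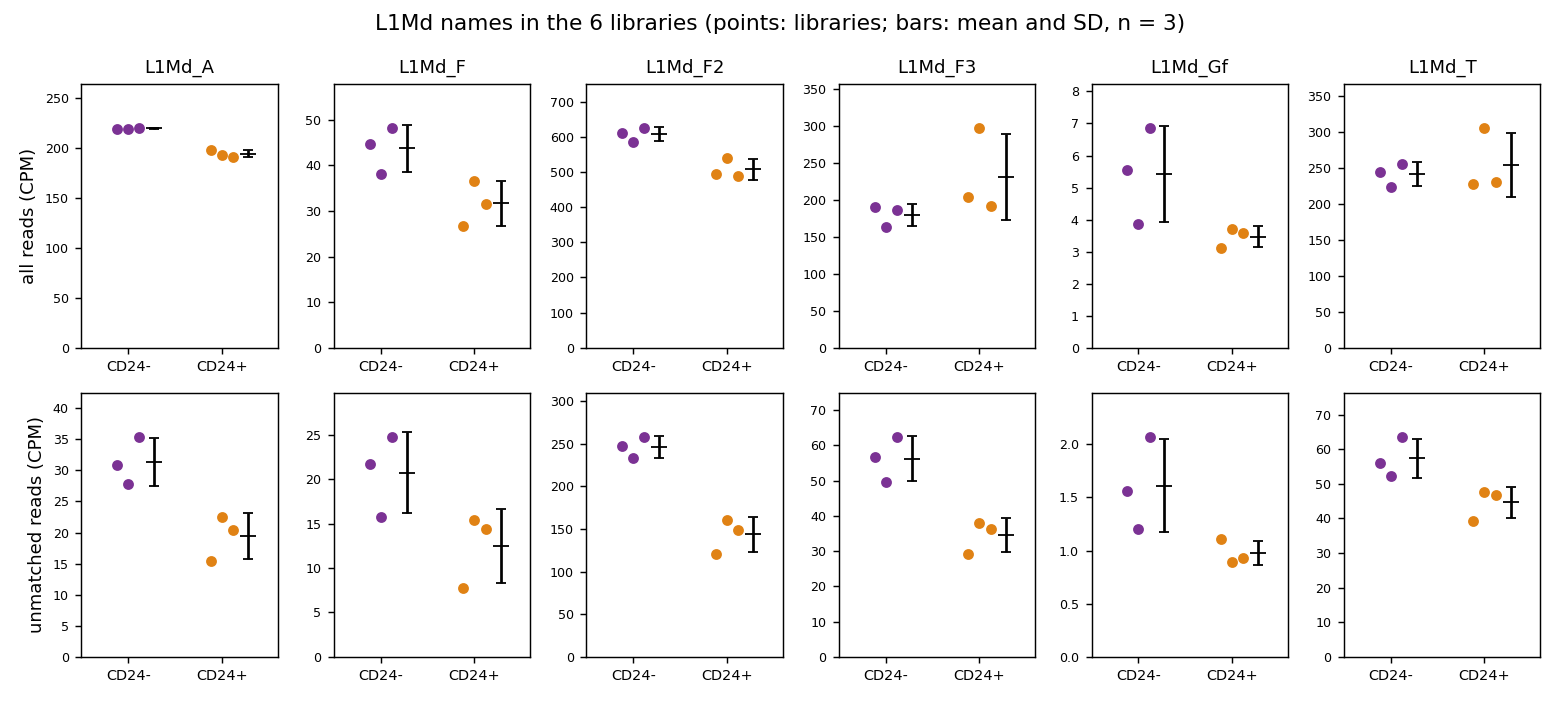
The 6 L1Md names in CPM, with points for the 3 libraries of each group and bars for their mean and SD. Over all reads (top) L1Md_F3 and L1Md_T reach their highest values in CD24+ replicate 2 (298 and 306 CPM), and over unmatched reads (bottom) each name is lower in the 3 CD24+ libraries.

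Among the 115 other LINE names, 101 were tested, 4 were called higher and 9 lower, beside 20.8% and 23.6% of all names, and the median was -0.20. Of 28 rodent L1 names 1 was higher and 3 were lower, of 64 mammal-wide L1 names 3 were higher and 6 lower, and of the 9 remaining names none was called. The count of 13 calls went to 5 without CD24- replicate 1, to 8 without CD24+ replicate 3 and to 20 without CD24+ replicate 2. When names were summed by family, in a fit with 45.7% of 11275 names called, no LINE family was called. The L1 family had a log2 fold change of -0.11 ± 0.09 (adjusted p = 0.323) and the L2 family of -0.18 ± 0.08 (adjusted p = 0.114), and the adjusted p of CR1 and RTE was 0.71 and 0.475.

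Of the 10 other LINE names with the most reads, most had a large share of them in 1 window that matched the messenger RNA of a gene elsewhere. L1_Mur1 had 52173 reads, of which 97% lay in 1 window on chromosome X, and 99.9% of these occurred in transcripts of Rps24, a protein of the small ribosomal subunit. The name stood at 510, 523 and 476 CPM in CD24- and at 641, 509 and 551 CPM in CD24+ libraries. Reads annotated to Rps24 itself were at 52, 53.2 and 52.3 against 62.2, 53.4 and 58.5 CPM. The LINE name thus held several times the reads of the gene whose transcript they match, and neither row was called.

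Lx5 had 81.8% of its 56704 reads in 1 window that matched Rps20, L1_Mur2 had 80.1% of its reads in a window that matched Rps25, and L1VL4 had 72.9% in one that matched Rpl31, all of them ribosomal proteins. L1_Mus2 had 70.6% in a window that matched the ubiquitin gene Ubb, L1_Mus1 had 49.7% in one that matched the chromatin protein gene Hmgb2, and Lx had 31.7% in one that matched Hmgn2. The authors' files named no gene within any of these windows. Of these names L1_Mus2 alone was called, at 538, 538 and 554 against 454, 460 and 465 CPM (-0.24 ± 0.07, adjusted p = 0.0221). The call was lost with TMM scaling (adjusted p = 0.0519) and without CD24- replicate 1, CD24- replicate 2 or CD24+ replicate 3. Without the window that matched Ubb it was at -0.71 (adjusted p = 0.000149), and with each distinct sequence counted once at -0.47 (adjusted p = 0.00186). The remaining names among the 10 most read were L2a, L3 and Lx8, and none of them was called. The largest window of L2a matched Tubb5 (10.5% of reads) and that of Lx8 matched Zfp871 (6.89%).

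The names called higher had 36.8% to 58.2% of their reads in the window of 1 gene or shared with rRNA reads. L1ME3A was at 11.2, 9.64 and 13.7 CPM in CD24- and at 24.9, 24.4 and 26.3 CPM in CD24+ libraries (1.14 ± 0.13, adjusted p = 7.55e-05). Its most-read window held 36.8% of the reads and lay in Trim35, a gene of the tripartite motif family, whose own reads were at 4.44, 5.63 and 4.97 against 103, 87.9 and 106 CPM. Without that window the log2 fold change of L1ME3A was 0.30 (adjusted p = 0.126), and over unmatched reads it was -0.13 (adjusted p = 0.621).

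L1MEe rose from 38.6, 33.1 and 30.6 to 46.7, 44.9 and 52.2 CPM (0.49 ± 0.11, adjusted p = 0.00426), with 58.2% of its reads in the window of Wbp5. These reads matched the transcript of that same gene under its newer symbol, Tceal9. Wbp5 itself was not called (0.18 ± 0.10, adjusted p = 0.168), and without that window L1MEe was at 0.97 (adjusted p = 0.000118). Over unmatched reads L1MEe was at -0.26 and not called (adjusted p = 0.397). Lx2 rose from 207, 186 and 194 to 231, 290 and 212 CPM (0.32 ± 0.12, adjusted p = 0.0442), with 43% of its reads rRNA-sharing. Its most-read window held 42.9% of the reads, all of them rRNA-sharing, and 78.8% of these also occurred in transcripts of Lars2. Reads annotated to Lars2 itself were called lower (-0.33 ± 0.11, adjusted p = 0.0292). The call of Lx2 was lost without any one of 5 libraries, CD24+ replicate 3 being the exception, and went to 0.18 (adjusted p = 0.143) without CD24+ replicate 2. L1MD2 was at 30.6, 31.7 and 32.6 against 36.3, 36.8 and 38.5 CPM (0.23 ± 0.09, adjusted p = 0.0458), with 36.9% of its reads in the window of Tmed10. That call was lost without CD24- replicate 1, CD24- replicate 2, CD24+ replicate 2 or CD24+ replicate 3. Over unmatched reads Lx2 and L1MD2 were fitted at -0.30 and -0.29.

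Of the names called lower, Lx3C moved most, from 59.3, 55.4 and 57 to 26.3, 38.3 and 38.6 CPM (-0.71 ± 0.13, adjusted p = 0.00153). It had 46.7% of its reads in 1 window on chromosome 17 in which the files named no gene, and without that window it was at -0.11 (adjusted p = 0.537). L1MC3 was at 24, 19.6 and 24.3 against 11.1, 18.7 and 15.6 CPM (-0.55 ± 0.17, adjusted p = 0.0254), with its largest window in Dennd1b. L1MEc was at 31.3, 25.8 and 32.4 against 14.6, 22.8 and 22.1 CPM (-0.55 ± 0.16, adjusted p = 0.0176), with its largest window in BC031781. Both of these genes were called lower themselves, Dennd1b at -0.98 and BC031781 at -0.92, and neither LINE name was called without that window.

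Lx4B was at 36.6, 34.7 and 40.9 against 19.9, 31.1 and 28.3 CPM (-0.48 ± 0.15, adjusted p = 0.024), and L1MD1 at 16.9, 14.3 and 20.4 against 9.95, 14.1 and 12.6 CPM (-0.47 ± 0.16, adjusted p = 0.0397). Lx4B was unusual in this group because 89.9% of its reads were unmatched and no window held more than 8.48% of them. Tbk1, the gene read in its largest window, was called lower (-0.33 ± 0.09, adjusted p = 0.0135). Without that window Lx4B was at -0.48 (adjusted p = 0.0188). L1MD1 had 16.8% of its reads in the window of Cnnm3, which was not called (-0.11 ± 0.12, adjusted p = 0.483). Without that window L1MD1 was at -0.55 (adjusted p = 0.0329). In L1MC3, L1MEc, Lx4B and L1MD1 the lowest value was that of CD24+ replicate 1. The calls of all 4 were lost without CD24- replicate 1, those of L1MC3, Lx4B and L1MD1 also without CD24- replicate 3, and those of L1MC3 and L1MD1 also without CD24+ replicate 1 or CD24+ replicate 3. With each distinct sequence counted once, Lx3C and these 4 names were at -0.30 to -0.24 and not called. Those counts were scaled to the distinct sequences of each library, which rose less than mapped reads in the larger libraries. The part of this scaling in the lost calls was not tested.

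Over unmatched reads none of 98 other LINE names was called higher and 11, or 11.2%, were called lower, beside 20.7% and 23.5% of all names in that fit. The median was -0.32, and 93 of the 98 were fitted below 0. Of all 11865 names in that fit, 6283 were. The 11 were L1_Mus2, L1_Mus1, L1_Mm, Lx3C and Lx4B among the rodent L1 names, L1M4, L1MA4, L1MB3 and L1MC4 among the mammal-wide ones, and L2a and L2b. L1_Mus2 moved most, from 111, 99.2 and 121 to 33.7, 53.9 and 53.2 CPM (-1.21 ± 0.16, adjusted p = 0.000153), and without its most-read window it was at -0.47 (adjusted p = 0.0424). In that setting the calls of Lx3C (-0.29, adjusted p = 0.222), L1_Mus1 (-0.40, adjusted p = 0.0599) and L1MA4 (-0.45, adjusted p = 0.0723) were lost. The other names listed kept theirs, and HAL1 and L2c were then called lower. L2a, an old element shared by mammals, went from 140, 123 and 143 to 68.6, 105 and 98.8 CPM (-0.56 ± 0.14, adjusted p = 0.00903). The number called ran from 7, without CD24- replicate 1 or without CD24- replicate 3, through 20 without CD24- replicate 2, to 27 without CD24+ replicate 2.

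**Figure D3:**
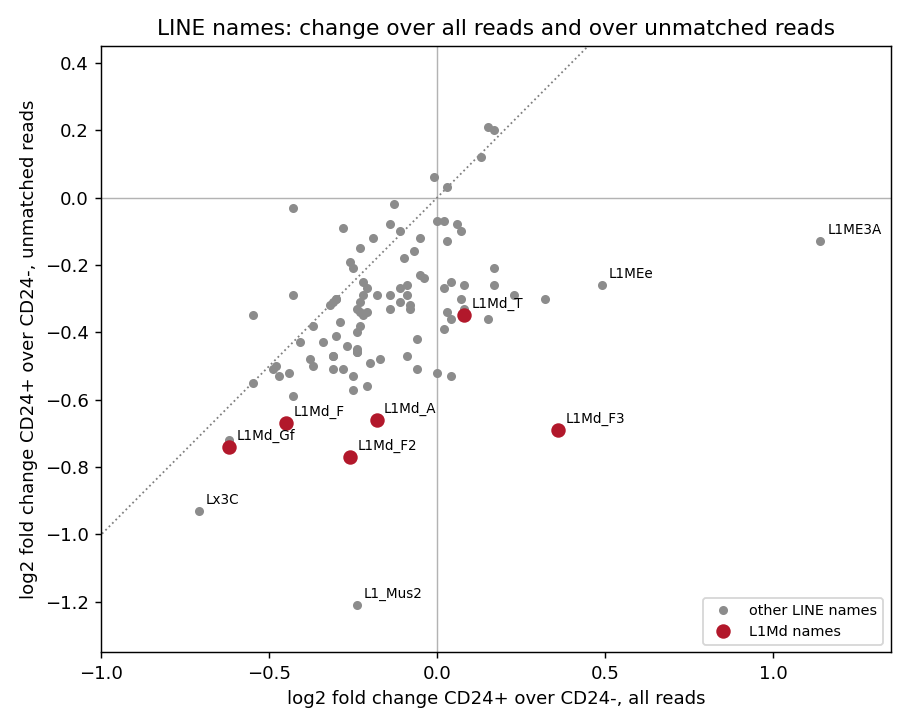
Log2 fold change of each LINE name over all reads (horizontal axis) and over unmatched reads (vertical axis), with L1Md names in red and a dotted line where both are equal. Most points lie below the line, among them L1Md_F3 (0.36 and -0.69) and L1ME3A (1.14 and -0.13).

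Unmatched reads were next taken by place. They fell into 47797 windows of 10 kb, and the 488 windows with enough reads to be tested held 26.3% of them. In a fit of these windows beside all other names, 20.4% of 12249 rows were called higher and 23.9% lower, and of the 488 LINE windows 27 were called higher and 144 lower, with a median log2 fold change of -0.46. Of 20 windows led by an L1Md name, 1 was called higher and 9 lower. The loci described next were chosen after their values were seen, as the 6 called windows with the most reads and some with large changes in either direction.

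Among the called windows with the most reads, the largest change was on chromosome 1 between 7030000 and 7049999. There L1_Mus2 reads led the first window, which was at 51.2, 44.8 and 52.7 CPM in CD24- and at 1.77, 1.75 and 1.95 CPM in CD24+ libraries (-4.75 ± 0.13, adjusted p = 6.29e-09). L1Md_F2 reads made up the second window, at 30.3, 29.9 and 25.8 against 1.66, 1.02 and 1.21 CPM (-4.55 ± 0.17, adjusted p = 2.62e-08). Reads of other classes there moved alike. LTR reads of the second window had means of 137 and 4.96 CPM, and unannotated reads of the first 54.7 and 1.96 CPM. No gene was named within these windows or next to them, and the nearest gene with at least 100 reads in a window, Pcmtd1, lay 70 kb beyond the second window at 18.6 to 21.5 CPM in CD24- and 27.3 to 32.6 CPM in CD24+ libraries.

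A similar block lay on chromosome 6 between 128970000 and 128979999, where 92.6% of the LINE reads were of L1Md_F3. The window was at 12.2, 12 and 13 CPM in CD24- and at 1.44, 2.12 and 2.22 CPM in CD24+ libraries (-2.62 ± 0.18, adjusted p = 1.25e-06), beside unannotated reads with means of 25.5 and 3.77 CPM. Leaving this window out moved the unmatched L1Md_F3 value from -0.69 to -0.43. On chromosome 17 between 27030000 and 27039999, Lx3C led a window at 50.4, 45 and 45.2 against 13.5, 20.2 and 21 CPM (-1.33 ± 0.14, adjusted p = 3.64e-05). Unannotated reads of that window had means of 347 and 131 CPM, while Kifc1, a kinesin gene 20 kb away, was at 77.4, 84.6 and 79.4 against 69.9, 81.7 and 76.4 CPM.

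On chromosome 13 between 65400000 and 65409999, L1_Mus1 reads were at 16.1, 14.7 and 11.9 against 6.08, 5.55 and 6.85 CPM (-1.21 ± 0.16, adjusted p = 0.000137). The nearest gene was Zfp369, a zinc finger gene 10 kb away, at 19, 18.2 and 15.2 against 6.19, 6.93 and 8.76 CPM. On chromosome 19 between 36180000 and 36189999, Lx3_Mus reads were at 6.86, 7.04 and 15.7 against 2.87, 4.28 and 6.69 CPM (-1.01 ± 0.35, adjusted p = 0.0384). The highest library was CD24- replicate 3, as it was for Ankrd1, the gene read in or next to that window, which was not called (-0.53 ± 0.23, adjusted p = 0.0791).

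Fewer windows were higher in CD24+ cells. The one with the most reads was on chromosome 2 between 24970000 and 24979999, where L1MB5 led with 37.9% of the LINE reads. It was at 10.1, 8.87 and 7.54 CPM in CD24- and at 15, 9.87 and 16.8 CPM in CD24+ libraries (0.65 ± 0.20, adjusted p = 0.0259), and the groups overlapped. LTR reads of that window had means of 20.1 and 37.4 CPM. The nearest genes with at least 100 reads in a window each lay 60 kb away, Nrarp, called higher (1.02), on one side and Nelf, called lower (-0.38), on the other. A window on chromosome 2 between 134550000 and 134559999, led by Lx7, was at 0.39, 0.493 and 0.331 against 3.1, 3.39 and 4.2 CPM (3.12 ± 0.30, adjusted p = 1.36e-05). A window on chromosome 1 between 152000000 and 152009999, led by L1Md_F2, was the only one led by an L1Md name that was higher, at 0.156, 0.141 and 0.0828 against 0.995, 0.857 and 1.01 CPM (2.82 ± 0.44, adjusted p = 0.000502).

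**Figure D4:**
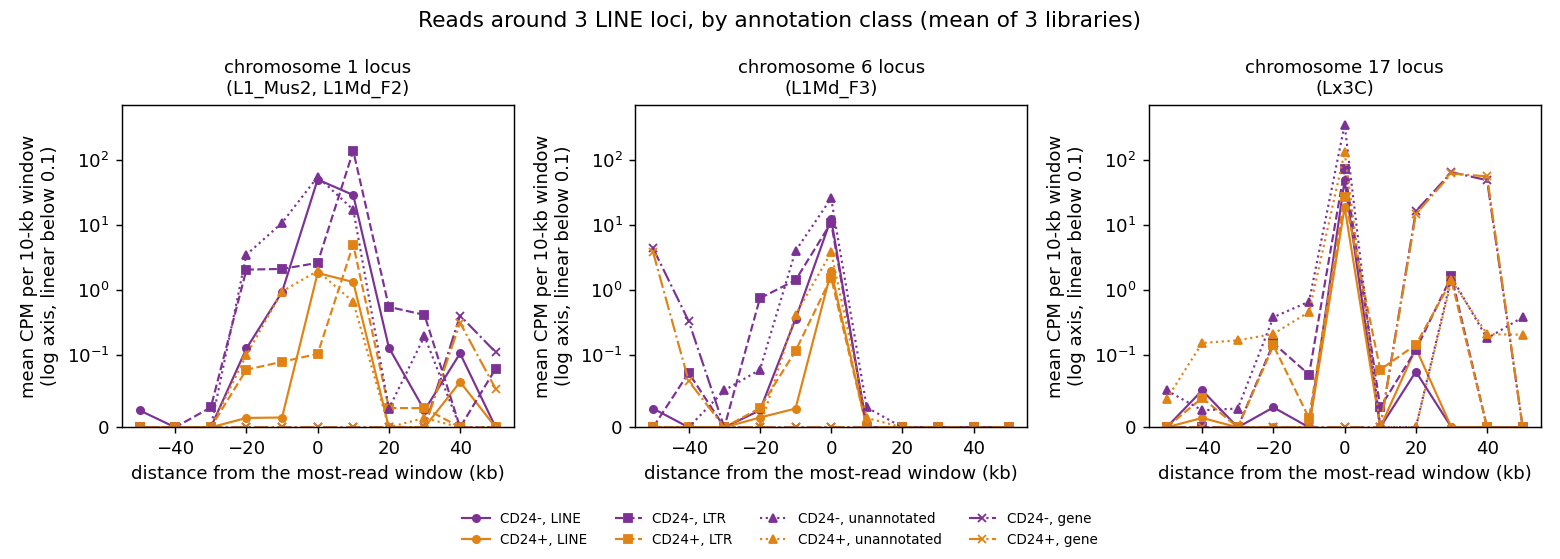
Mean CPM of 3 libraries per group in 10-kb windows around 3 loci, by annotation class, against the distance from the most-read window in kb, on a log axis that is linear below 0.1. At each locus LINE, LTR and unannotated reads are all lower in CD24+ (orange) than in CD24- (purple) in the central window, while gene reads 20 kb from the chromosome 17 locus are level.

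LINE reads followed the other reads of their window. In 428 windows with at least 100 reads of other kinds (unannotated, SINE, LTR, gene and other), the log2 ratio of the group means of the unmatched LINE reads and that of the other reads had a Pearson correlation of 0.83 and a Spearman correlation of 0.70 across windows. These points come from the same 6 libraries, and neighbouring windows can belong to 1 transcript, so no test was made. The sign was the same in 334 of 428 windows, and in 136 of the 145 whose LINE reads were called. LINE reads of the 488 tested windows leaned to lower values (median log2 fold change -0.46). How many equal signs such a lean alone would give was not tested. A named gene had reads in the window or next to it in 397 of the 488 tested windows.

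**Figure D5:**
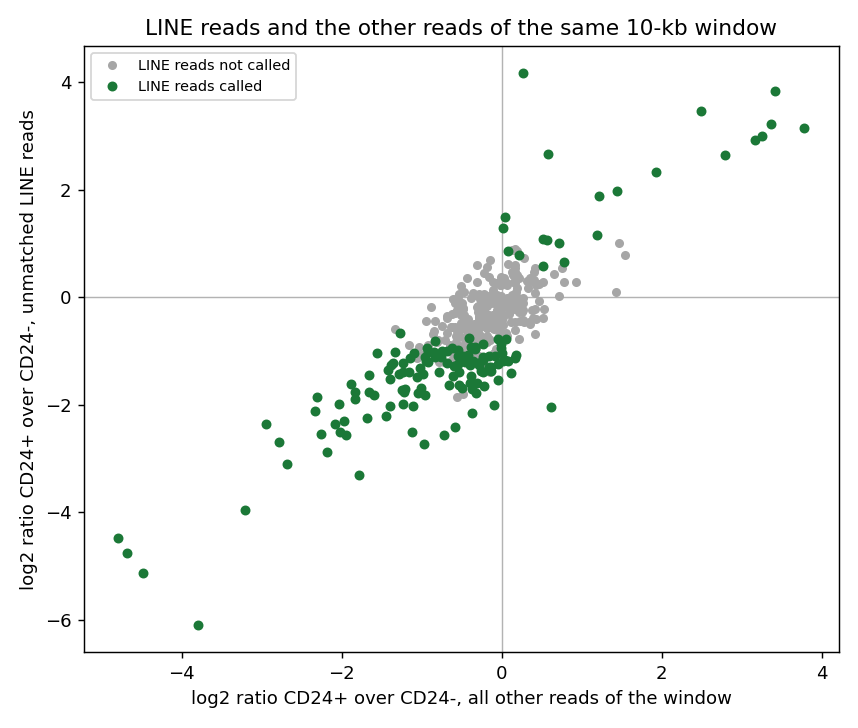
Log2 ratio of group means, CD24+ over CD24-, in 428 windows of 10 kb, for all other reads of the window (horizontal axis) and for its unmatched LINE reads (vertical axis). Windows whose LINE reads were called (green) lie mostly along the diagonal at both ends, with 136 of 145 on the same side of 0 on both axes.

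Genes known to restrain or drive L1 were read in the same libraries, from a list of 32 genes of which 27 were tested. In CD24+ cells 5 were higher and 10 lower, beside 20.8% and 23.6% of all names, and the median log2 fold change was -0.10 beside -0.03 for all names. Of the 5 genes of DNA methylation, which silences L1 promoters, 3 were lower, beside 23.6% of all names. Dnmt1, the maintenance methyltransferase, was at 320, 321 and 320 against 212, 276 and 256 CPM (-0.37 ± 0.10, adjusted p = 0.0127), and Dnmt3a, which methylates new sites, fell by 0.46 on the log2 scale. Dnmt3b, with the same activity, was at 3.43, 2.32 and 3.73 against 1.77, 2.16 and 1.91 CPM (-0.67 ± 0.24, adjusted p = 0.0447). Uhrf1 and Hells were not called.

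Of 12 tested genes of histone H3 lysine 9 methylation and the HUSH complex, 6 were lower and 1 higher, beside the same 23.6% and 20.8% of all names. Fam208a, listed as well, did not occur as a name in any library and was not tested. Suv39h1, a methyltransferase of heterochromatin, had the largest decrease of the list, from 70.6, 66.9 and 73.9 to 30.2, 42.2 and 36.9 CPM (-0.94 ± 0.12, adjusted p = 0.000104). Setdb1, the methyltransferase recruited by Trim28, went from 108, 101 and 90.6 to 63.8, 74.9 and 70.6 CPM (-0.51 ± 0.09, adjusted p = 0.0015). Cbx5, which encodes the heterochromatin protein HP1 alpha, was the gene that rose (0.32 ± 0.09, adjusted p = 0.0135), and Trim28 was not called.

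Of 7 genes that act on L1 RNA or cDNA, 3 were higher and 1 lower, and of all names 20.8% and 23.6% were. Samhd1, which depletes nucleotides for reverse transcription, rose from 60.3, 56.6 and 49.3 to 74, 87.2 and 87.1 CPM (0.58 ± 0.10, adjusted p = 0.00109), and Apobec3, a cytidine deaminase, from 17.3, 17.4 and 14.7 to 22.2, 20.1 and 24.8 CPM (0.44 ± 0.12, adjusted p = 0.0145). The largest increase of the list was that of Runx3, a transcription factor reported to bind the promoter of human L1, from 2.18, 1.48 and 2.4 to 21.2, 24.9 and 23.9 CPM (3.55 ± 0.17, adjusted p = 1.97e-07). Yy1 and Sp1, also promoter factors, were not called. The germline genes Mael and L1td1 did not occur as names in any library, so a lack of reads cannot be told apart from another symbol. Tex19.1 and Piwil2 had 1 and 9 reads.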

How the data were processed

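RNA libraries of CD24- and CD24+ Mvt1 cells, from 3 plates per group, were read on an Illumina instrument. Reads shortened to 47 nt were merged by the authors where identical, placed on the mouse genome without mismatch, and each sequence received 1 place and 1 annotation by a hierarchy. They deposited, per library, the raw count of each sequence, not normalized and not pooled, with coordinates in mm9 according to the submitters' processing notes. No aligner or repeat annotation source is named in the paper or labels. Whether coordinates start from 0 or 1 is not stated. The strand of each printed sequence was read from the order of its start and stop positions, whose meaning is not stated either. Exact matching drops reads over exon junctions and over differences between FVB/N and the reference, and a read that fits several copies of a LINE was given only 1, so a LINE name or place is uncertain among near-identical copies. Strand was not used in any count.

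Deposited counts were summed per annotation name. Reads without annotation, 16.9% to 20.2% of a library, stayed in the library total and out of the tests. LINE reads were matched by all 47 bases, on both strands, to the transcripts of GENCODE M21 (GRCm38), whose coordinates were not used, and were called rRNA-sharing where 24 bases in a row occurred in a read annotated as rRNA. Names kept by filterByExpr were fitted with edgeR 4.0.16 in R 4.3.3 (quasi-likelihood F test, all mapped reads as library size, Benjamini-Hochberg adjustment over all names, threshold 0.05, SE from the fitted test). Tables were made with Python 3.11.15 and pandas 2.3.3. The fit was tested on simulated data. Alternatives were TMM scaling, DESeq2 1.42.0, names with at least 10 reads, each distinct sequence counted once, each name without its most-read 10-kb window, repeat names alone, each library left out, the replicate number as a block and, chosen after seeing the data, unmatched reads alone and LINE windows.

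Named are Cd24a, each L1Md name, the 10 other LINE names with the most reads, among called other LINE names the 5 that rose and the 5 that fell most with a mean of at least 1 CPM and no overlap (only 4 increases met this), the 3 largest regulator changes each way, and the genes of most-read windows. Further names were chosen after their values were seen. The members, lists and rules were chosen with earlier results of these data known. Libraries of 1 group differed by more than sampling noise (the lowest chi-square per degree of freedom over LINE names was 3.69), so none was taken for a repeat. The p-values measure only the spread between plates.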

Additional observations from a re-analysis of the deposited data

How the results depend on the processing

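Of all LINE names 16 were called, 12 with TMM scaling and 18 with DESeq2, but 9 with repeat names alone, 4 with each distinct sequence counted once, 15 without the most-read windows and 16 with unmatched reads alone. L1Md calls went from 3 to 1 with TMM scaling or repeat names alone, to 0 with distinct sequences, and to 5 without the most-read windows or with unmatched reads alone. Calls of other LINE names went from 13 to 8 with repeat names alone and to 4 with distinct sequences. Counts of distinct sequences were scaled to the distinct sequences of each library. DESeq2 scaled the libraries by its own factors, and TMM scaling adjusted the mapped totals by factors of 0.953 to 1.02. The other counts were scaled to mapped reads. The cause of these shifts was not tested. Leaving out 1 library gave 5 to 22 LINE names, 0 to 3 L1Md names and 5 to 20 other names over all reads, and 10 to 32, 3 to 5 and 7 to 27 over unmatched reads.

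Summed by family over unmatched reads, L1 was at -0.46 (adjusted p = 0.0361) and L2 at -0.50 (adjusted p = 0.024), both then called lower, and CR1 at -0.26 turned sign without a call, as RTE did at 0.03 with distinct sequences. The L1Md total, a mean log2 difference of -0.09, was -0.31 with distinct sequences, -0.30 without the most-read windows and -0.70 over unmatched reads, and -0.18 to -0.04 with 1 library left out. The total of the other names, -0.12, was -0.23 and -0.45 in the latter pair of settings and -0.15 to -0.08 with 1 library left out. Family values with 1 library left out ran from -0.15 to -0.07 for L1, -0.22 to -0.11 for L2, 0.01 to 0.07 for CR1 and -0.12 to -0.02 for RTE.

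Single names turned sign as follows. With distinct sequences, L1Md_F3 was at -0.36, L1Md_T at -0.18, Lx5 at -0.16, L1_Mur1 at -0.10, L1VL4 at -0.11 and Lx2 at -0.08. Without the most-read window, L1Md_T was at -0.33 (adjusted p = 0.0428), Lx5 at -0.35, L1_Mur1 at -0.24, L1VL4 at -0.25, Lx2 at -0.09 and L1MD2 at -0.15. Over unmatched reads, L1Md_F3 was at -0.69, L1Md_T at -0.35, Lx5 at -0.39, L1_Mur1 at -0.21, L3 at -0.25, L1VL4 at -0.34, L1ME3A at -0.13, L1MEe at -0.26, Lx2 at -0.30 and L1MD2 at -0.29. With 1 library left out, L1Md_T ran from -0.08 to 0.15, Lx5 from -0.04 to 0.08 and L1VL4 from -0.04 to 0.08. Of 404 alternative values of the named names 292 kept both direction and side of the threshold. Without the most-read window, 5 L1Md names were called lower.

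Groups share replicate numbers, but plates of the same number did not deviate together (correlations of 0.00605, -0.264 and -0.288). The samples were therefore not taken as pairs, though 3 libraries per group are too few to exclude a shared preparation. With the replicate block 1 L1Md name and 10 other names were called over all reads, and 5 L1Md names and 18 other names over unmatched reads. Counting reads that occur once in the genome was not run, because no genome sequence of the build was used here. L1Md_Gf, with 420 reads, gives the widest errors of the L1Md names, and windows under the count filter, with 73.7% of unmatched reads, were not tested singly.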
